A study of Mus musculus with 4 samples.

Results

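The genes described here encode the enzymes that take stored triglyceride apart in the liver, together with the proteins that switch these enzymes on or off. They are 9 gene symbols, taken by name from the deposited expression table: Pnpla2, Pnpla3, Lipe, Mgll, Abhd5, G0s2, Lipa, Hsd17b13 and Aadac. Each had a single row, out of 22849 gene symbols in all. Liver RNA was sequenced from male C57BL/6 mice, an inbred strain, that ate a high fat diet (60% fat) for 12 weeks. The vehicle group ate this diet alone, and the UAB126 group had UAB126, a compound known here only by its code, mixed into it (1.2 g for each kg of food). Each group had 2 libraries, numbered in the titles as vehicle 1 and 2 and UAB126 1 and 2. The sources used here do not give the ages of the mice, or whether libraries came from separate or pooled animals. The p-values thus rest on the spread between libraries, some of which may be technical. Both groups were on the high fat diet, so no comparison with a normal diet can be made.

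Triglyceride in a lipid droplet is broken down in steps. ATGL, the product of Pnpla2, removes the first fatty acid, hormone-sensitive lipase (Lipe) acts on the diglyceride that is left, and monoglyceride lipase (Mgll) releases the last fatty acid from glycerol. ABHD5 is the coactivator of ATGL and G0S2 is its inhibitor. PNPLA3 is a droplet-bound relative of ATGL that competes with it for ABHD5, and HSD17B13 is a droplet-bound hepatocyte enzyme linked to fatty liver. Lysosomal acid lipase (Lipa) degrades triglyceride and cholesteryl ester delivered to the lysosome, and AADAC is a lipid hydrolase of the endoplasmic reticulum.

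The upstream sequences of Lipe, G0s2 and Pnpla2 are shown because Lipe and G0s2 had the largest differences between the groups and Pnpla2 encodes the enzyme that G0S2 inhibits. They are the parts outside annotated exons of the 250 bases before a RefSeq transcription start (GRCm38.p6, the assembly of mm10), 5′ to 3′ on the strand of the gene, with capitals marking motif matches on either strand. Lipe has another RefSeq start further upstream whose window lies in annotated exons and is not printed, and the gene-level FPKM does not separate the starts.
Lipe, chr7:25390113-25390351, minus strand: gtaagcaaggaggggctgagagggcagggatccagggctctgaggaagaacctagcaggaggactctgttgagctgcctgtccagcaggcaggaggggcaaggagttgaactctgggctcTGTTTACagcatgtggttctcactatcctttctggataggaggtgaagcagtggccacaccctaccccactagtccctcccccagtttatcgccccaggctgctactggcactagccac
G0s2, chr1:193273218-193273337, minus strand: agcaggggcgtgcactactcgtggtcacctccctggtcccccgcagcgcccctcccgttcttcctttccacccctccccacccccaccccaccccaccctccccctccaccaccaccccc
Pnpla2, chr7:141454938-141455187, plus strand: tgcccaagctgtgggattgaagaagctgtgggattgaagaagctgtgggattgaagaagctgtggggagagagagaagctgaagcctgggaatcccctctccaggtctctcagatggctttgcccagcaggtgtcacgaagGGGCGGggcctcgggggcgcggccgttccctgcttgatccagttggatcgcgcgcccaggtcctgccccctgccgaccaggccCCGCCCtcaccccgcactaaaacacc
The motifs searched were the E-box CACGTG, the FoxO core GTAAACA, the GC box GGGCGG and the cAMP response element TGACGTCA. The capitals in the Lipe sequence are a FoxO core, which occurs in 3.16% of 32817 RefSeq windows of this length. Those in the Pnpla2 sequence are GC boxes, which occur in 32.7% of the windows. The G0s2 stretch printed holds no match, and the single GC box of its full window lies in an annotated exon. The E-box occurs in 6.02% of all windows and is found in the other window of Lipe and in 1 of the windows of Mgll, which also holds a FoxO core. The cAMP response element occurs in 1.55% of all windows and is found in a window of Pnpla3. A match is a description of letters and not of binding.

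In these livers the members ranged from barely detected to among the most abundant transcripts. Among hepatocyte markers Ttr (transthyretin) ran from 19630 to 44090 FPKM over the libraries, and Alb was listed at 0 in 3 of the 4. FPKM, fragments scaled by transcript length and by all mapped fragments, is a level per length, so levels can be set side by side between genes. The mean levels in vehicle were 453 FPKM for Hsd17b13, 403 for Aadac, 357 for G0s2, 185 for Lipa, 111 for Mgll, 79.9 for Pnpla2, 15.9 for Lipe, 11.4 for Abhd5 and 0.863 for Pnpla3. The transcript of the inhibitor G0s2 thus stood above that of ATGL, and the coactivator Abhd5 far below it, in all 4 libraries. Neighbours in this order were not all separate: Aadac and G0s2 changed places between the vehicle libraries. With UAB126 the order of the means differed in 1 pair, with Abhd5 (9.58 FPKM) above Lipe (7.5 FPKM). In UAB126 replicate 2, Pnpla2 (141 FPKM) also stood above Mgll (136 FPKM).

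**Figure D1:**
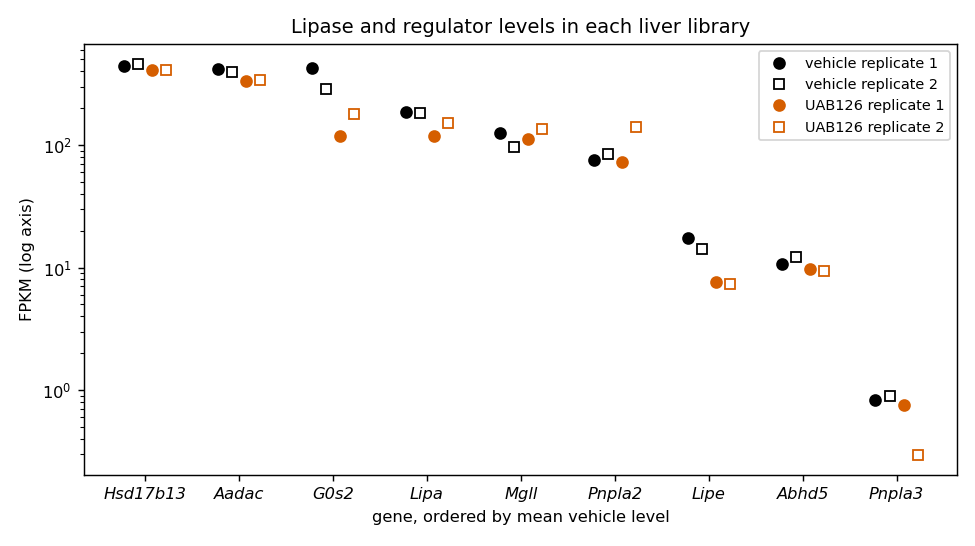
FPKM (log axis) of the 9 genes in each library, ordered by the vehicle mean (black, vehicle; orange, UAB126; filled circles, replicate 1; open squares, replicate 2). The UAB126 points lie below both vehicle points for G0s2 (119.5 and 181 FPKM against 428 and 287) and Lipe (7.62 and 7.38 against 17.5 and 14.3), while those for Pnpla2 lie on either side of the vehicle points and the groups overlap for Mgll.

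The comparison asked which of these genes differed between livers with and without UAB126. No member passed the test: 0 of the 8 tested had an adjusted p under 0.05 (limma, Benjamini-Hochberg over 10786 symbols), where 0.139% of all tested genes did. Pnpla3 had a mean under 1 FPKM and was not tested. At an unadjusted p under 0.05 there were 2 members, Lipe and G0s2, both lower with UAB126, where 8.38% of all genes were. Both UAB126 libraries lay below both vehicle libraries in 6 of the 8 tested members, and in Pnpla3. Over all tested genes the groups were apart in this direction in 26.9% and in the other in 22.7%. The share was larger among abundant genes: it was 49.1% in the decile of genes with the highest mean FPKM, which holds 5 members, of which 4 were lower (Hsd17b13, Aadac, G0s2 and Lipa) and 0 higher, where 8.62% of its genes were. The median log2 difference of the tested members was -0.25, beside -0.03 over all tested genes and -0.39 in that highest decile.

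**Figure D2:**
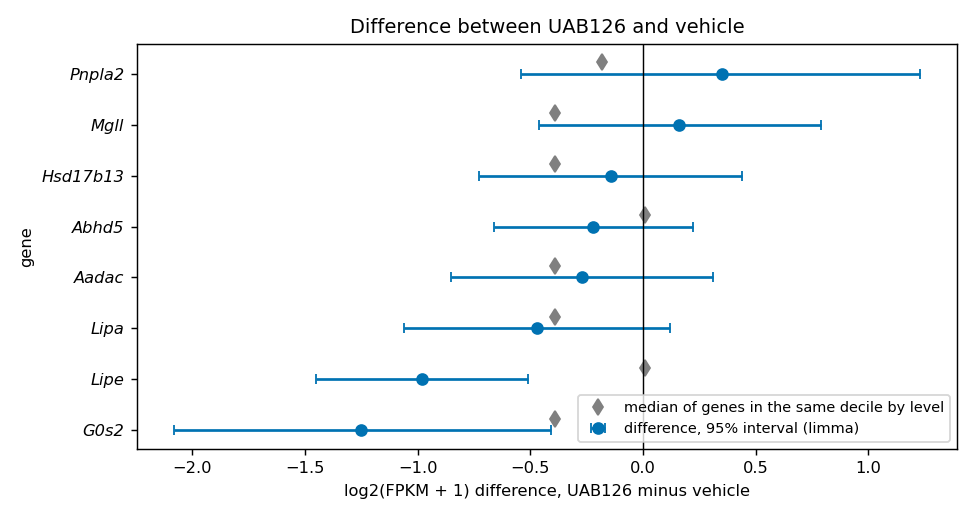
Difference of log2(FPKM + 1), UAB126 minus vehicle, of the 8 tested genes with the 95% interval from limma (blue), and the median difference of all genes in the same decile by mean level (grey diamonds). The intervals of Lipe (-1.45 to -0.51) and G0s2 (-2.08 to -0.41) lie below 0, and the other 6 include 0.

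ATGL is the first lipase of the pathway. Pnpla2 (chromosome 7, 141455198 to 141460743 of mm10, GENCODE M21) measured 75.8 and 84.0 FPKM in the vehicle libraries and 73.1 and 141 FPKM in the UAB126 libraries. The UAB126 libraries lay on either side of the vehicle pair, and replicate 2 stood apart at 1.93 times replicate 1. The log2 difference was 0.35 ± 0.35 (limma's moderated SE, n = 2 per group, 95% interval -0.54 to 1.23, limma adjusted p = 0.655). For every gene ± is this SE. Differences were taken after adding 1 to the FPKM, so those of low genes are understated. Without UAB126 replicate 2 the Pnpla2 difference turned to -0.12. Some other lipid droplet genes also had a gap between the UAB126 libraries, of 2.26 times for Plin5 and 1.96 times for Cidec. Plin5, whose protein binds ATGL and ABHD5 at droplets, measured 28.1 and 22.2 FPKM in the vehicle libraries and 25.1 and 56.7 FPKM in the UAB126 libraries, and Cidec, a droplet fusion gene, was at 6.51 and 6.10 against 5.18 and 10.2. Cidec was the gene nearest to Pnpla2 of the 129 compared, with a root mean square difference of 0.118 in centred log2 values over the 4 libraries.

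G0s2, the ATGL inhibitor (chromosome 1, 193272161 to 193273217), measured 428 and 287 FPKM in the vehicle libraries and 119.5 and 181 FPKM in the UAB126 libraries. The groups did not overlap, but the libraries of each group differed by 0.67 and 1.51 times, replicate 2 over replicate 1. The ratio of the means was 2.38, vehicle over UAB126, and the log2 difference was -1.25 ± 0.33 (limma unadjusted p = 0.0118, adjusted p = 0.270). G0s2 has a short transcript of 871 bases, in the decile of genes with the shortest transcripts. The median log2 difference of that decile was -0.42, and replicate 2 exceeded replicate 1 there by a median of 0.51 in vehicle and 0.44 with UAB126. For G0s2 replicate 2 was the lower of the vehicle pair and the higher of the UAB126 pair. With the trend with transcript length removed its difference was -0.77. G0s2 overlaps Lamb3 on the other strand, and no source used here says whether fragments were counted by strand. Lamb3 measured 2.89 and 1.25 FPKM in the vehicle libraries and 0.732 and 0.638 FPKM in the UAB126 libraries. The nearest gene to G0s2 was Scd1, a stearoyl-CoA desaturase gene, at a root mean square difference of 0.216.

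Abhd5, the ATGL coactivator (chromosome 9, 122351608 to 122381524), measured 10.6 and 12.1 FPKM in the vehicle libraries and 9.71 and 9.45 FPKM in the UAB126 libraries. The groups did not overlap, though the gap between them was smaller than that between the vehicle libraries. Its log2 difference was -0.22 ± 0.17 (95% interval -0.66 to 0.22, limma adjusted p = 0.566). The gene nearest to it was another member, Hsd17b13, at a root mean square difference of 0.061.

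The balance of inhibitor and enzyme can be read within a library, where the scaling of the library cancels but a trend with transcript length does not. These ratios were chosen after the values were seen and carry no test. There were 5.64 and 3.41 FPKM of G0s2 per FPKM of Pnpla2 in the vehicle libraries, and 1.63 and 1.28 in the UAB126 libraries. The mean ratio was 3.10 times higher in vehicle, and the groups did not overlap. With the length trend removed the log2 differences of G0s2 and Pnpla2 were -0.77 and 0.40, against -1.25 and 0.35. The ratio of G0s2 to Abhd5 was 40.4 and 23.6 in vehicle and 12.3 and 19.1 with UAB126. The ratio of Abhd5 to Pnpla2 was 0.140 and 0.145 in vehicle and 0.133 in UAB126 replicate 1, and it was low, at 0.0669, in UAB126 replicate 2, where Pnpla2 was high.

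**Figure D3:**
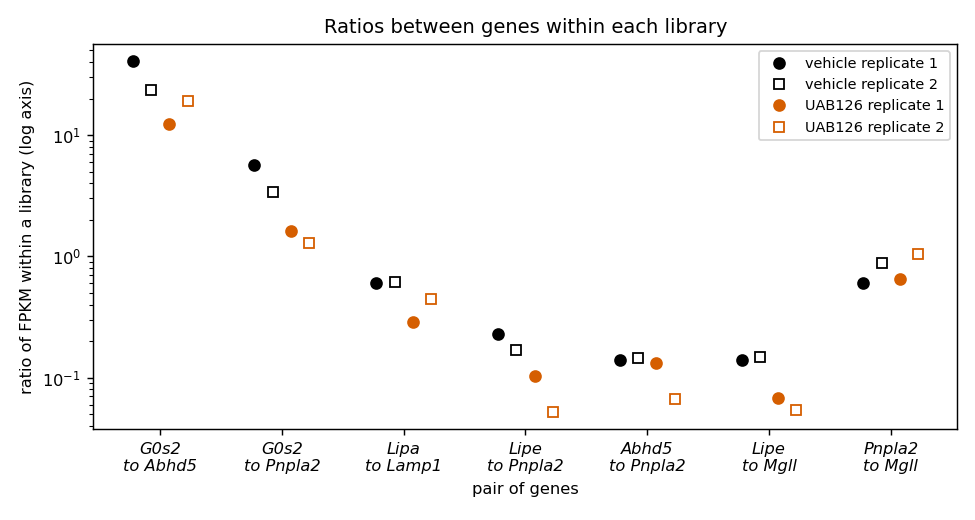
Ratio of the FPKM of 2 genes within each library (log axis, symbols as in the plot of levels). For G0s2 to Pnpla2 the vehicle libraries were at 5.64 and 3.41 and the UAB126 libraries at 1.63 and 1.28, and for Abhd5 to Pnpla2 only UAB126 replicate 2 (0.0669) stands apart.

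Lipe, for hormone-sensitive lipase (chromosome 7, 25379527 to 25398710), measured 17.5 and 14.3 FPKM in the vehicle libraries and 7.62 and 7.38 FPKM in the UAB126 libraries. The UAB126 libraries were nearly equal, and both lay well below the vehicle pair. The ratio of the means was 2.12, vehicle over UAB126. The log2 difference was -0.98 ± 0.19 (limma unadjusted p = 0.00267, adjusted p = 0.199), the smallest p among the members. Genes of the same decile by level had a median of 0.01, and genes of the same decile by transcript length a median of 0.03. It was between -1.12 and -0.85 when any 1 library was left out. The gene 4732471J01Rik overlaps Lipe on the other strand, at 0.138 to 0.351 FPKM in all libraries. The nearest gene to Lipe was Ces2e, a carboxylesterase gene, at a root mean square difference of 0.077.

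Hormone-sensitive lipase is best known from fat cells, so fat cell markers were read beside it. Of 12 such markers 8 were tested, and the groups did not overlap in 4, all lower with UAB126, where 26.9% of all tested genes were. The summed level of the 10 with a row was 269.8 and 157 FPKM in the vehicle libraries, 33.2 and 69.5 FPKM in the UAB126 libraries, and Cfd, the adipsin gene, made up most of it in vehicle replicate 1 (213 FPKM). The other non-overlapping markers were Slc2a4 (the glucose transporter GLUT4), at 1.41 and 6.68 FPKM against 0.111 and 0.293 FPKM, Lpl (lipoprotein lipase), at 18.2 and 72.2 against 9.74 and 14.6, and Pparg, at 17.2 and 6.87 against 6.52 and 5.16. The other 6 markers with a row overlapped between the groups. Of these, Adipoq (adiponectin) measured 2.80 and 2.59 FPKM in the vehicle libraries and 2.09 and 4.47 FPKM in the UAB126 libraries. Plin1, the droplet coat gene of fat cells, was at 0.398 and 0.805 against 0.175 and 0.748, and no marker with a row was listed at 0. The part of these markers in the Lipe difference was not tested. In whole liver, fewer cells of a type and less RNA per cell cannot be told apart.

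Mgll, for monoglyceride lipase (chromosome 6, 88724412 to 88828360), measured 126 and 96.2 FPKM in the vehicle libraries and 112 and 136 FPKM in the UAB126 libraries. The groups overlapped, with a log2 difference of 0.16 ± 0.25 (95% interval -0.46 to 0.79, limma adjusted p = 0.775), and without vehicle replicate 2 it was -0.03. Its nearest gene was Fitm2, a droplet formation gene, at a root mean square difference of 0.057. Within a library Lipe was lower relative to both other lipases with UAB126. The ratios to them were also chosen after the values were seen, carry no test and largely restate the Lipe difference. The ratio of Lipe to Mgll was 0.139 and 0.148 in vehicle and 0.0680 and 0.0544 with UAB126. That of Lipe to Pnpla2 was 0.231 and 0.170 in vehicle and 0.104 and 0.0523 with UAB126. The groups did not overlap in either ratio. They overlapped in the ratio of Pnpla2 to Mgll, which was 0.604 and 0.873 in vehicle and 0.653 and 1.04 with UAB126.

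Pnpla3 (chromosome 15, 84167837 to 84187236) was barely detected. It measured 0.835 and 0.891 FPKM in the vehicle libraries and 0.760 and 0.293 FPKM in the UAB126 libraries, so that UAB126 replicate 2 lay apart and the other three libraries were close. With no filter on low values its log2 difference was -0.30 ± 0.18 (limma adjusted p = 0.570). At such a level a value may rest on few fragments. Pnpla3 is a known target of SREBP-1c. Srebf1, the gene of that factor, measured 108 and 77.6 FPKM in the vehicle libraries and 51.8 and 29.1 FPKM in the UAB126 libraries (log2 difference -1.22 ± 0.34, limma adjusted p = 0.277). The part of Srebf1 in the Pnpla3 values was not tested.

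Hsd17b13 (chromosome 5, 103955440 to 103977410) was the most abundant member in each library, with 443 and 463 FPKM in the vehicle libraries and 408 and 413 FPKM in the UAB126 libraries. The libraries of a group nearly coincided, and the UAB126 mean was lower by 9.4%. Its log2 difference was -0.14 ± 0.23 (95% interval -0.73 to 0.44, limma adjusted p = 0.792). The neighbouring relative Hsd17b11 measured 217 and 196 FPKM in the vehicle libraries and 164 and 178 FPKM in the UAB126 libraries. Their ratio ran from 2.04 to 2.48 and overlapped between the groups. Hsd17b11 was the nearest gene to Aadac, and Abhd12, a lipid hydrolase gene, the nearest to Hsd17b13, each at a root mean square difference of 0.038.

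Aadac (chromosome 3, 60025717 to 60040160) measured 414 and 392 FPKM in the vehicle libraries and 331 and 337 FPKM in the UAB126 libraries. Its groups did not overlap either, and the log2 difference was -0.27 ± 0.23 (limma adjusted p = 0.593). Hsd17b13 and Aadac share the decile of genes with the highest levels, where the median was -0.39, so both were lower by less than that median. The directions of both turned with quantile normalization, to 0.25 and 0.08, and with the length trend removed, to 0.05 and 0.04. Markers of hepatocytes, the cells that make both proteins, were lower in both UAB126 libraries in 6 of 12 tested genes and higher in 2. In the decile with the highest levels 49.1% of genes were lower and 8.62% higher, and over all tested genes 26.9% and 22.7%. The median difference of the 12 markers was -0.70. Their summed level was 70670 and 132900 FPKM in vehicle and 39230 and 55790 with UAB126, where Alb (albumin) had a value above 0 in vehicle replicate 2 alone. Their part in these differences was not tested.

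Lipa, the lysosomal acid lipase gene (chromosome 19, 34492318 to 34527474), measured 185 and 184 FPKM in the vehicle libraries and 118 and 150.2 FPKM in the UAB126 libraries. The vehicle libraries nearly coincided, while the UAB126 libraries differed by 1.28 times and both lay below. The log2 difference was -0.47 ± 0.23 (95% interval -1.06 to 0.12, limma adjusted p = 0.427), close to the -0.39 of genes as abundant, and it was -0.11 with quantile normalization and -0.30 without UAB126 replicate 1. Its nearest gene was Ces1f, a carboxylesterase gene, at a root mean square difference of 0.053. Among 20 other lysosome genes, 3 were lower in both UAB126 libraries and 8 were higher, where 26.9% and 22.7% of all tested genes were. The median of these 20 was 0.10, and 0 passed. Ctsl (cathepsin L) measured 361 and 382 FPKM in the vehicle libraries and 677 and 715 FPKM in the UAB126 libraries. Within a library the ratio of Lipa to Lamp1, a lysosome membrane gene that was higher with UAB126, was 0.598 and 0.618 in vehicle and 0.288 and 0.449 with UAB126. The ratio of Lipa to Ctsd (cathepsin D), whose groups overlapped, was 0.915 and 0.768 in vehicle and 0.606 and 0.636 with UAB126. Both ratios were chosen after the values were seen and carry no test. Ctsb (cathepsin B), among the 3 lower genes, measured 787 and 1041 FPKM in the vehicle libraries and 648 and 775 FPKM in the UAB126 libraries. Macrophages also express Lipa. The summed level of their 10 markers with a row was 116 and 348 FPKM in vehicle, 236 and 316 FPKM with UAB126. The part of these markers in the Lipa values was not tested.

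**Figure D4:**
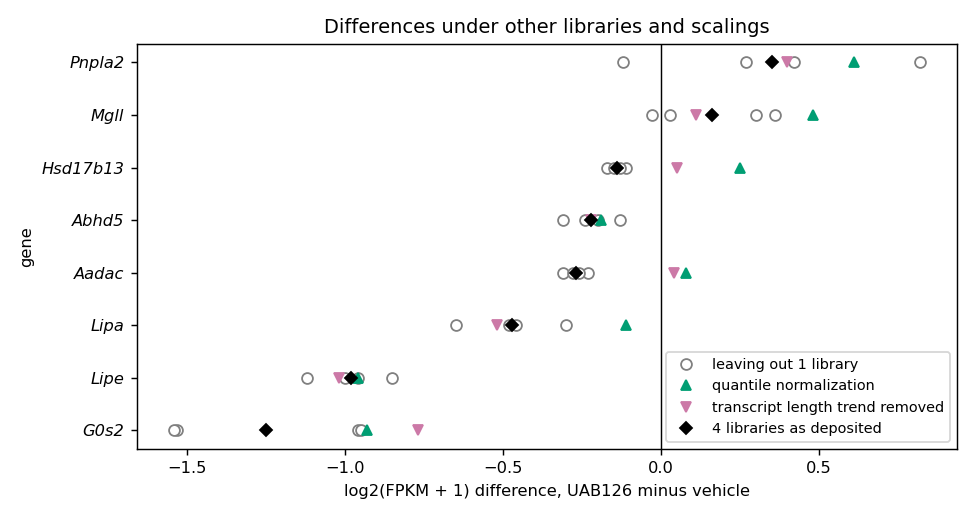
Difference of log2(FPKM + 1), UAB126 minus vehicle, of each tested gene with all 4 libraries (black diamonds), without 1 library (open circles), with quantile normalization (green) and with the transcript length trend removed (pink). Lipe, G0s2, Lipa and Abhd5 stay below 0 throughout, while Hsd17b13 and Aadac cross 0 with both scalings, and Pnpla2 and Mgll without 1 library.

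Beside the members, 7 lists of related genes held 122 tested genes, of which 1 rose and 1 fell (limma adjusted p under 0.05, where 0.0464% of all tested genes rose and 0.0927% fell). The one that fell was Cidea, a droplet protein gene, from 7.17 and 5.87 FPKM to 0.129 FPKM and a value listed at 0 (log2 difference -2.82 ± 0.22, limma adjusted p = 0.0361). Of the 16 droplet protein genes tested, both UAB126 libraries were lower in 5 and higher in 1, where they were in 26.9% and 22.7% of all tested genes. The median of these 16 was -0.12. Plin2, the main droplet coat gene of hepatocytes, measured 409 and 247 FPKM in the vehicle libraries and 245 and 295 FPKM in the UAB126 libraries. The Cidea call was lost with no filter on low values, without either UAB126 library, with a pseudocount of 0.1 and with the length trend removed, and Cidea was below a filter at 5 FPKM. Fitm1, a droplet formation gene, measured 145 and 138 FPKM in the vehicle libraries and 14.9 and 33.4 FPKM in the UAB126 libraries (limma adjusted p = 0.125).

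Of 21 other neutral lipid hydrolases, 11 were lower in both UAB126 libraries and 3 were higher, where 26.9% and 22.7% of all tested genes were. Of these hydrolases 0 passed the threshold. Their median was -0.20. Pnpla7, of the same family as ATGL, measured 225 and 204 FPKM in the vehicle libraries and 117 and 142 FPKM in the UAB126 libraries, and had a limma adjusted p of 0.313. Ces2a was at 99.1 and 117 FPKM against 49.9 and 63.3, though carboxylesterase genes have close copies that may share reads. Lipg, endothelial lipase, measured 4.79 and 4.56 FPKM in the vehicle libraries and 11.7 and 16.7 FPKM in the UAB126 libraries (limma adjusted p = 0.137).

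The genes that govern lipolysis showed no common direction. Of 16 genes of cAMP and kinase control 6 were higher and 5 lower in both UAB126 libraries (median 0.12). Of 15 transcription factors 5 were higher and 4 lower (median -0.01). In either list 0 passed the threshold, and over all tested genes 22.7% were higher and 26.9% lower in both UAB126 libraries. Gcgr, the glucagon receptor, measured 291 and 334 FPKM in the vehicle libraries and 166 and 210 FPKM in the UAB126 libraries. Foxo1, a factor reported to act on Pnpla2 and G0s2, had 10.6 FPKM in both vehicle libraries, below the 16.4 and 20.2 FPKM of the UAB126 libraries (log2 difference 0.73 ± 0.19, limma adjusted p = 0.270). Xbp1, of the same list, differed more and in the other direction. It measured 245 and 229 FPKM in the vehicle libraries and 111.5 and 105 FPKM in the UAB126 libraries (log2 difference -1.12 ± 0.21, limma adjusted p = 0.199). The part of either factor in the lipase values was not tested.

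G0s2 and Pnpla2 are known targets of PPAR-alpha, the fatty acid sensor of the liver. Of 21 other such targets both UAB126 libraries were higher in 10 and lower in 1, where they were in 22.7% and 26.9% of all tested genes. Past the threshold was 1, Fgf21, from 4.51 and 3.44 FPKM to 67.6 and 111 FPKM (limma adjusted p = 0.0345). This call was lost with no filter and without either UAB126 library. The median of the 21 targets was 0.17, and the part of PPAR-alpha in the G0s2 and Pnpla2 differences was not tested. Acot2, an acyl-CoA thioesterase gene, measured 4.91 and 3.98 FPKM in the vehicle libraries and 11.2 and 26.3 FPKM in the UAB126 libraries, higher in replicate 2 by 2.34 times where Pnpla2 was higher by 1.93 times. Of 13 targets of the lipogenic factors SREBP-1c and ChREBP, 6 were lower and 3 higher, where 26.9% and 22.7% of all tested genes were. Their median was -0.29, with 0 past the threshold. Among these Thrsp, a lipogenic regulator, measured 1241 and 1215 FPKM in the vehicle libraries and 475 and 406 FPKM in the UAB126 libraries.

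**Figure D5:**
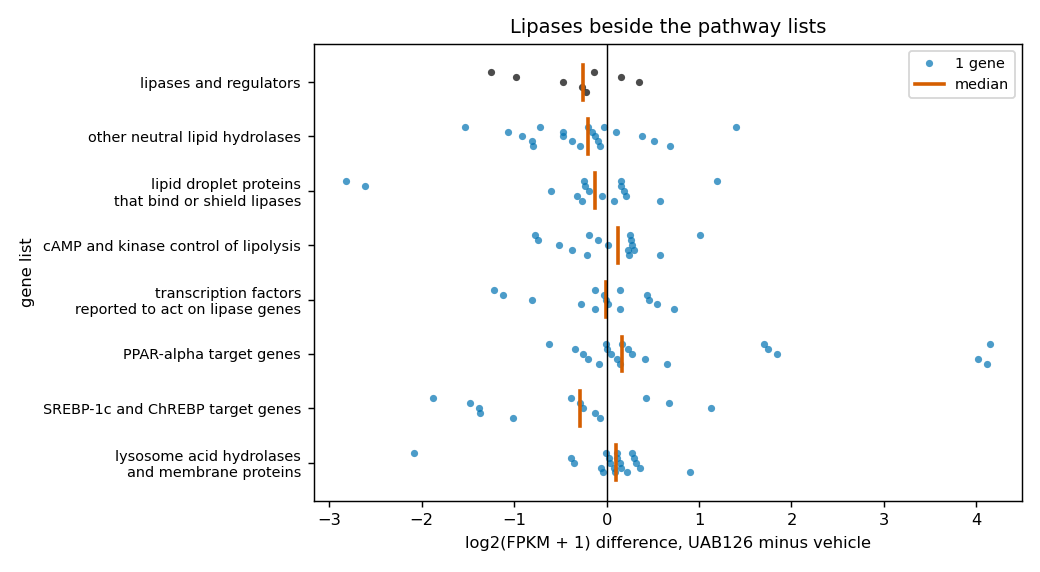
Difference of log2(FPKM + 1), UAB126 minus vehicle, of each tested gene (points) in the 8 tested lipases and regulators (black) and in 7 lists of related genes (blue), with the median of each (orange bars). The members lie between -1.25 and 0.35 around a median of -0.25, and the PPAR-alpha targets reach 4.15 (Fgf21).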

How the data were processed

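Per the labels' protocols, polyadenylated RNA from frozen liver was fragmented, copied with random primers and sequenced as read pairs. The submitters' processing notes name mm10 as the build and list Cufflinks 2.2.1, Cuffdiff, STAR 2.5.1b and Trim Galore 0.4.1. Annotation and settings are not stated in the sources used here. The authors deposited FPKM values, already scaled for depth and transcript length, so no count test was run.

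Of 27216 rows, 3634 without a symbol were left out and rows sharing a symbol were summed, which left 22849 symbols. The 595 rows naming several genes were kept under their joint name and not used as list members. Symbols that averaged 1 FPKM or more over the libraries were tested as log2(FPKM + 1) with limma 3.58.1 in R 4.3.3 (lmFit, eBayes with trend, group only, two-sided). Its 5.35 degrees of freedom include 3.35 taken from other genes. An exact permutation test of 2 against 2 libraries cannot go below 0.333. The fit code was run on simulated data whose added changes were larger than the difference of any member. That run does not tell how the fit performs at smaller differences. Other values were computed with Python 3.11.15 and pandas 2.3.3. Positions and lengths came from GENCODE M21, since the deposited loci of several members span neighbouring genes, and upstream sequences from RefSeq, where all 9 genes matched.

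Depth relative to UAB126 replicate 1, read from steps of low values, was 0.691 and 0.404 in vehicle replicates 1 and 2 and 0.703 in UAB126 replicate 2. The absolute depth is unknown. Over genes, pairs of libraries correlated at 0.914 to 0.959 on the log2 scale.

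Members and lists were chosen with earlier results of these data known. All members are named. From each list the rule took genes past the threshold, then non-overlapping genes in order of unadjusted p, up to 4, plus Plin2, Plin5, Cidec, Hsd17b11, Foxo1 and Srebf1. Only some of these are printed. Acot2, Lamp1, Ctsd and Ctsb were chosen after their values were seen. Likeness was searched among the members and list genes alone, so a nearest gene of related function follows from the choice of lists. The values were centred but not scaled, so genes that differ little between libraries lie close to each other. Likeness carries no test.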

Additional observations from a re-analysis of the deposited data

How the results depend on the processing

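None of the 8 tested members passed the threshold in any of the 13 alternatives (limma). Their lowest adjusted p ranged from 0.0785 (Lipe) to 0.579 (Hsd17b13). Lipe (-1.12 to -0.85), G0s2 (-1.54 to -0.77), Lipa (-0.65 to -0.11) and Abhd5 (-0.31 to -0.13) kept their direction throughout. Directions turned for Hsd17b13 and Aadac with quantile normalization (0.25 and 0.08) and with the length trend removed (0.05 and 0.04), for Pnpla2 without UAB126 replicate 2 (range without 1 library -0.12 to 0.82) and for Mgll without vehicle replicate 2 (-0.03 to 0.36). The cause was not tested.

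The count of all genes past the threshold, 15, was 27 with a pseudocount of 0.1 and 24 with quantile normalization, split as 12 higher and 12 lower against 5 and 10. With no filter it was 0 and over the fits without 1 library it ran from 0 (without UAB126 replicate 2) to 442 (without vehicle replicate 1). The count among the related lists, 2, was 1 with a pseudocount of 0.1, at a mean of at least 5 FPKM or with the length trend removed, 0 with no filter, and 0 to 9 without 1 library. With the replicate number as a replicate block the counts were 148 and 6. Replicates that share a number correlated at 0.178 in their deviations over genes, and nothing in the labels pairs them. Vehicle replicate 2 was the shallowest library.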

Other observations

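Markers of other liver cells were read beside the members. Of 11 endothelial markers tested, both UAB126 libraries were higher in 5 and lower in 0, with a median log2 difference of 0.35, and of 10 stellate cell markers 2 were higher and 0 lower (median 0.14). Their summed levels were 145 and 236 FPKM in vehicle and 211 and 241 with UAB126 for endothelial cells, and 183 and 220 against 206 and 208 for stellate cells. Of 10 macrophage markers 3 were higher and 0 lower (median 0.46), and vehicle replicate 1 was the lowest library for each of these 3 cell types. Over all tested genes both UAB126 libraries were higher in 22.7% and lower in 26.9%. None of the genes in the 5 lists of cell type markers passed the threshold (limma, adjusted over all tested genes).

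Adrb3, the beta-adrenergic receptor through which lipolysis is stimulated in fat cells, measured 6.69 and 5.24 FPKM in the vehicle libraries and 4.42 and 5.84 FPKM in the UAB126 libraries, and Abhd6, a further monoglyceride hydrolase gene, was at 21.2 and 15.7 against 22.7 and 30.7. These genes were chosen after their values were seen.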
